A study of Mus musculus with 6 samples.

Results

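The heavy chain variable (V) genes of the mouse Ig locus on chromosome 12 were examined in RNA sequenced from activated B cells. The members are all genes whose symbol starts with *Ighv*, which gave 185 of the 54446 genes in the deposited table. Of these, 113 are annotated as V genes, 70 as V pseudogenes and 2 carry the biotype IG_LV_gene and repeat the symbols *Ighv5-8* and *Ighv1-13*. Naive B cells were taken from the spleens of *Tent5c* KO mice and their WT littermates aged 12 to 15 weeks, of the mixed C57BL/6J X CBA background. They were kept in culture until day 7 with IL-4, at 20 ng/ml, and bacterial LPS, at 20 µg/ml, which together make B cells divide, switch Ig class and develop towards antibody-secreting cells. TENT5C is a cytoplasmic poly(A) polymerase, and the comparison asks how its loss bears on the RNA of these cells. There were 3 libraries labelled KO and 3 labelled WT. Per the methods, 1 replicate was a KO and a WT littermate, and the authors corrected for a batch effect. Each replicate number was therefore taken as 1 pair of littermates. All 6 libraries had the same stimulus and the same culture time.

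An Ig heavy chain gene is assembled in the developing B cell by joining 1 V gene to a D and a J segment, so that each B cell clone transcribes mainly the V gene it has joined. V genes fall into families of related sequence, given by the first number of the symbol, and lie in tandem upstream of the D segments. Genes next to the D segments are called proximal and those at the far end distal. The V part of the RNA encodes a leader peptide and most of the variable domain, and in the same molecule it is followed by D, J and a constant gene such as *Ighm* or *Ighg1*. The number of fragments on a V gene therefore reflects both how many cells use it and how much Ig RNA each cell holds. In bulk RNA these cannot be told apart.

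The members cover 2.44 Mb of GRCm38, from 113572927 to 116010093 on chromosome 12, and 183 of them lie on the minus strand, so that the lowest coordinate is the most D-proximal. They make up 16 families. *Ighv5-1* is the first member from the D side and *Ighv1-86* the last. Both are pseudogenes with at most 3.14 normalized counts in any library.

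The ends of the V segments are shown first because this is where V joins D, and because they show how far the families differ in sequence. The last 60 bases of the most counted member of each of 15 families, 5′ to 3′ from the GENCODE transcripts on GRCm38, are given with the letters TACTGTG in capitals where they occur. These letters read like the heptamer of a recombination signal and overlap the codon of the conserved second cysteine of the V domain. In *Ighv1-82*, *Ighv6-3*, *Ighv9-3*, *Ighv11-2* and *Ighv13-2* the letters do not occur in this stretch.
Ighv1-82: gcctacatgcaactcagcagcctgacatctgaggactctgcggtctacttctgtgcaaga
Ighv2-2: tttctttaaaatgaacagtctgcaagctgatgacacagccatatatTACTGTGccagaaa
Ighv3-6: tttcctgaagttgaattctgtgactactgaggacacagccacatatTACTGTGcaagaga
Ighv4-1: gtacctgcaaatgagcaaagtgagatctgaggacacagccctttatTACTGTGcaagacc
Ighv5-17: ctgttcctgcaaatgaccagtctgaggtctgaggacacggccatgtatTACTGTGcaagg
Ighv6-3: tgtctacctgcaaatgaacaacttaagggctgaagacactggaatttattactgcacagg
Ighv7-3: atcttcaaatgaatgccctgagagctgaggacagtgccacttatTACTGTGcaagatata
Ighv8-8: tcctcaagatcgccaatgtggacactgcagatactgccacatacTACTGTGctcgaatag
Ighv9-3: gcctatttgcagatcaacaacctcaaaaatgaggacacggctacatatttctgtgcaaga
Ighv10-1: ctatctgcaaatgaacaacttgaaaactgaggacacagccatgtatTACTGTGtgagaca
Ighv11-2: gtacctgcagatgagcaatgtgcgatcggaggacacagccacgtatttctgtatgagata
Ighv12-3: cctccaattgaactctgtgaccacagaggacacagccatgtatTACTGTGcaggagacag
Ighv13-2: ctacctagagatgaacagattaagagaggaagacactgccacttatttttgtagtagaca
Ighv14-2: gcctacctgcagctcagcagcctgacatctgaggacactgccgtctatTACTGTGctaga
Ighv15-2: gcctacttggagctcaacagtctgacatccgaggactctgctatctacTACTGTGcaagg

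Searched on both strands of the last 40 bases, TACTGTG was found on the coding strand in 96 of 185 members (51.9%) and its reverse complement in 0. It was present in 70 of 113 V genes (61.9%), in 26 of 70 pseudogenes (37.1%) and in 58 of the 90 members that averaged at least 10 normalized counts (64.4%). A match is a description of these letters and not of their use.

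The last 294 bases, which hold nearly the whole V exon, are given for the pair of members with the highest counts, *Ighv1-26* (chr12:114788372-114788805) and *Ighv1-82* (chr12:115952538-115953005), for the pseudogene with the highest counts, *Ighv1-14* (chr12:114646572-114647056), and for *Ighv7-4* (chr12:114222788-114223328), the member with the lowest log2 fold change among the 90 that averaged at least 10 normalized counts. Capitals again mark TACTGTG.
Ighv1-26: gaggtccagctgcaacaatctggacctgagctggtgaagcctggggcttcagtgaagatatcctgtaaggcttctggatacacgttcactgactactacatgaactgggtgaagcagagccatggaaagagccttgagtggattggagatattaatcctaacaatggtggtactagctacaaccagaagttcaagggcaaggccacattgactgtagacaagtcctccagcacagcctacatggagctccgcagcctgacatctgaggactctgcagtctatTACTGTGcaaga
Ighv1-82: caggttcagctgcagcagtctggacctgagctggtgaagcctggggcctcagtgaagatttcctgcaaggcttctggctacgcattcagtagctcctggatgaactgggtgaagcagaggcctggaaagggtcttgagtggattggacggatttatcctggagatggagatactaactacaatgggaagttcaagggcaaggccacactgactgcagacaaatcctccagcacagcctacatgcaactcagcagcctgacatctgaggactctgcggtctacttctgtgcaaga
Ighv1-14: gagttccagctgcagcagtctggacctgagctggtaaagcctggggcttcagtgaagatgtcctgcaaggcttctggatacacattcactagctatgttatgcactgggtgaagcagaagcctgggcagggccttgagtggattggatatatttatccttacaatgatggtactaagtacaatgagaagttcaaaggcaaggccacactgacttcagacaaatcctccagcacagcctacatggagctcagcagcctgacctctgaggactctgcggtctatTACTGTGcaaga
Ighv7-4: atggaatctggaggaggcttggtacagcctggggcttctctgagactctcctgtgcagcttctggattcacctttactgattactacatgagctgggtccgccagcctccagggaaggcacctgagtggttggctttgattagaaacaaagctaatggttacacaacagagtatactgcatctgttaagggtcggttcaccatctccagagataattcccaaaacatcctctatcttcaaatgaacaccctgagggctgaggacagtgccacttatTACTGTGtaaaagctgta
*Ighv1-26* and *Ighv1-82* differ by 43 edits over these bases, an identity of 85.4%, although they are of 1 family. *Ighv1-14* is 88.1% identical to *Ighv1-26*. *Ighv7-4* is 60.5% identical to *Ighv1-26*.

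Likeness between members also sets how well a read can be placed. The closest other member was on median 93.5% identical over 294 bases, and up to 100% for *Ighv1-62-2* and *Ighv1-71*. Of all stretches of 75 bases, the read length, a median of 94.7% were found in no other member for the 90 members with a mean of at least 10. *Ighv1-71* (2.81%), *Ighv1-62-2* (8.88%) and *Ighv1-72* (28.3%) fell under 50% and their values are uncertain, since reads that fit several places equally were left out by the authors. *Ighv1-72*, the V gene best known from antibodies against the hapten NP, differs from *Ighv1-62-3* by 2 edits.

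The libraries held between 5393558 and 6793520 fragments on genes, and 1 fragment was worth 0.908 to 1.20 normalized counts, so that a count of 0 allows up to 2.72 to 3.61. *Tent5c* itself had 1255, 767 and 1584 normalized counts in WT 1, 2 and 3 and 1993, 993 and 1170 in KO 1, 2 and 3. Its level was not reduced by the KO label (log2 fold change 0.20, SE 0.19, adjusted p = 0.970, limma), and the sources used here do not say which bases the KO allele lacks. Groups are therefore named by their labels throughout, and every direction between KO and WT rests on those labels. The B cell markers *Ms4a1* and *Cd79b* were high in all libraries, at 9152 to 12045 and 5630 to 6634 normalized counts. Of the 10 T cell markers 2 reached a mean of 10, and the sum of all 10 was 331 to 497 in WT and 320 to 423 in KO, mostly on *Thy1*, while the T cell receptor complex genes *Cd3d*, *Cd3e* and *Cd3g* had at most 9.63.

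At least 1 fragment was found on 140 of the 185 members, and 104 had fragments in all 6 libraries. These were 109 of the 113 V genes, 30 of the 70 pseudogenes and 1 of the 2 IG_LV_gene entries. The 45 members with no fragment in any library included *Ighv16-1*, the single gene of its family. The 90 members with a mean of at least 10 comprised 87 V genes and 3 pseudogenes. Usage was uneven, but no gene was dominant: the most counted member held 5.85% of all *Ighv* counts, the top 10 held 37.1% and the top 12 held 42.0%, each over the mean of the 6 libraries.

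*Ighv1-82* had 1036, 514 and 1512 normalized counts in WT 1, 2 and 3 and 903, 338 and 523 in KO 1, 2 and 3. *Ighv1-26* had 1095, 377 and 1536 in WT and 798, 177 and 594 in KO. Both genes were highest in WT 3 and lowest in KO 2, and in each pair the KO library had the lower value. Per kb of exon, the scale on which genes can be compared, *Ighv1-26* came first with a mean of 2174 normalized counts per kb and *Ighv1-82* second with 2084, so that this order depends on the length. The spread over the 3 WT libraries (SD 585 for *Ighv1-26* and 499 for *Ighv1-82*, in normalized counts) was far larger than the gap between them. The distal gene *Ighv1-80* (1551 per kb), *Ighv1-53* (1408), *Ighv9-3* (1401) and *Ighv6-3* (1261) followed. *Ighv1-22* (1085), *Ighv3-6* (1084), *Ighv1-64* (1071), *Ighv7-3* (956) and *Ighv1-9* (933) stood close together, and *Ighv5-17* closed the top 12 with 899. The top 12 came from 6 families, and 7 of its genes were of family 1.

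**Figure D1:**
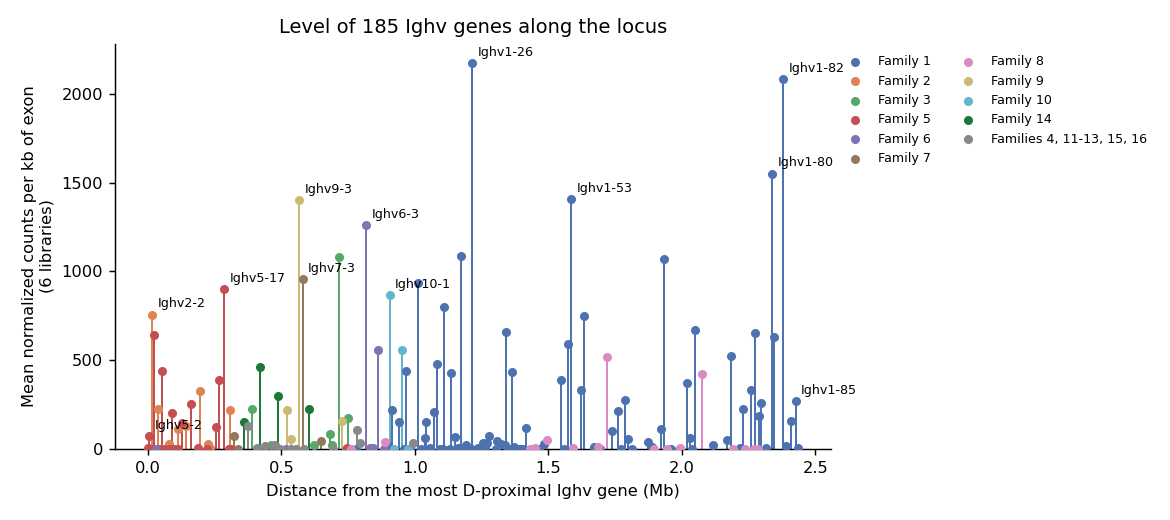
Mean normalized counts per kb of exon over the 6 libraries (y axis) for each of the 185 *Ighv* genes, placed by distance in Mb from the most D-proximal member (x axis) and coloured by V family. *Ighv1-26* (2174 per kb) and *Ighv1-82* (2084 per kb) stand highest, families 2, 5, 3, 9 and 14 crowd the D-proximal side, and family 1 fills the distal side.

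Family 1 was by far the most used. It has 93 members, 53 of them V genes, and held 61.1%, 51.2% and 59.8% of all *Ighv* counts in WT 1, 2 and 3 and 61.8%, 54.3% and 59.5% in KO 1, 2 and 3. Its counts were spread over many genes, with 9.90% of them on *Ighv1-82*. Family 5, with 22 members, came next at 8.07% to 9.90% over the 6 libraries. Families 2 (3.82% to 7.56%), 3 (3.76% to 5.67%), 6 (4.04% to 5.51%), 9 (3.40% to 5.03%), 10 (2.76% to 4.33%), 14 (2.57% to 3.97%) and 8 (2.03% to 3.68%) followed. Family 8 stayed below families 2, 3 and 6, and family 14 below family 6, while the other ranges overlapped. Family 7 ran from 1.81% to 7.25%, the widest relative range among the families with over 1% of counts, and its highest 2 values were those of pair 2.

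Small families often rested on 1 gene. *Ighv9-3* held 76.4% of the counts of family 9, *Ighv6-3* held 69.0% of family 6, *Ighv3-6* held 65.9% of family 3 and *Ighv7-3* held 88.3% of family 7. *Ighv10-1* had 59.6% of family 10 and *Ighv8-8* had 49.3% of family 8, whose 16 members are scattered among those of family 1. Families with a single counted gene were family 12, on *Ighv12-3*, and family 15, on *Ighv15-2*. Use was more even in family 14, where *Ighv14-2* held 39.1%, in family 2, where *Ighv2-2* held 40.1%, and in family 5, where *Ighv5-17* held 29.1%.

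At the low end, family 4 held 0.297% to 0.503% of *Ighv* counts and family 13 held 0.0914% to 0.330%, almost all of it on *Ighv4-1* and *Ighv13-2*. Families 11 and 12 are known from antibodies against phosphatidylcholine made by B-1 cells. They held 0.0691% to 0.114% and 0.0659% to 0.107%, and the values of both overlapped in the 6 libraries. *Ighv11-2* had 10.4, 9.41 and 19.3 normalized counts in WT 1, 2 and 3 and 8.49, 5.72 and 5.45 in KO 1, 2 and 3, and its mean was under 10. *Ighv12-3* had 15.1, 9.41 and 16.9 in WT and 14.2, 3.81 and 9.99 in KO.

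Among the genes nearest to D, *Ighv5-2*, known as VH81X and as a V gene favoured early in B cell development, was little used. It had 15.1, 43.9 and 47.0 normalized counts in WT 1, 2 and 3 and 14.2, 15.3 and 18.2 in KO 1, 2 and 3. The nearby V genes *Ighv2-2* and *Ighv5-4* were used about as much as many distal genes, at 757 and 644 normalized counts per kb against 72.5 for *Ighv5-2*. *Ighv7-1*, the V gene of classical antibodies against phosphorylcholine, had 19.8, 24.0 and 53.0 in WT and 30.2, 10.5 and 24.5 in KO. The most distal member with a mean of at least 10 was *Ighv1-85*, with 112, 29.3 and 213 in WT and 108, 26.7 and 76.3 in KO.

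The 185 members were ranked by position and split into 4 sections of 46 or 47 members. Families 2, 4, 11 and 16 lie in the first section, on the D side, with all but 1 member of family 5 and most of family 14. Families 10, 12, 13 and 15 lie in the second, with most members of families 3, 6 and 9, and family 7 is split between both. The last 2 sections hold members of families 1 and 8 alone. The proximal section, from *Ighv5-1* to *Ighv9-1*, held 17.7%, 21.3% and 18.2% of all *Ighv* counts in WT 1, 2 and 3 and 16.4%, 20.9% and 18.2% in KO 1, 2 and 3. The distal section, from *Ighv1-54* to *Ighv1-86*, held 33.4%, 24.6% and 33.6% in WT and 35.4%, 28.7% and 33.4% in KO. In all 6 libraries the distal section held more than the proximal one, and in pair 2 the gap was smallest. The second section held 23.8% to 24.7% in the 4 libraries of pairs 1 and 3 but 34.2% and 31.2% in WT 2 and KO 2. Each section held between 17 and 26 members with a mean of at least 10.

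**Figure D2:**
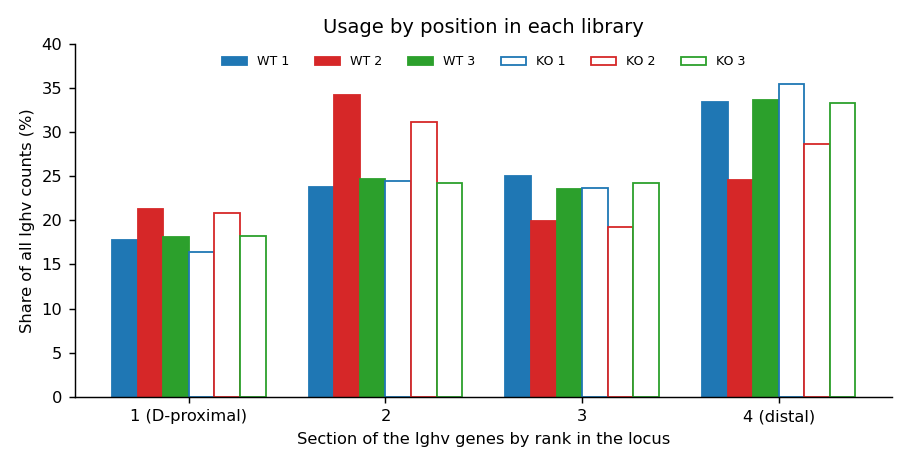
Share of all *Ighv* counts in percent (y axis) held by each section of the members ranked from the D-proximal to the distal end (x axis), with 1 bar per library, filled for WT and open for KO and coloured by littermate pair. The distal section holds the most in pairs 1 and 3 (33.4% to 35.4%), while in pair 2 the second section does (34.2% and 31.2%).

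The summed level of all *Ighv* genes was lower in the library labelled KO in each pair. It was 18127, 9186 and 25596 normalized counts in WT 1, 2 and 3 (17636 ± 8216, SD, n = 3) and 15014, 5215 and 9327 in KO 1, 2 and 3 (9852 ± 4920). The groups overlapped, because WT 2 was below KO 1 and KO 3. The KO/WT ratio was 0.828, 0.568 and 0.364 in pairs 1, 2 and 3, a mean log2 ratio of −0.85 ± 0.59 (SD over 3 pairs). The exact sign-flip permutation test over the pairs, two-sided, gave p = 0.25, the smallest that 3 pairs allow. As a share of all fragments, *Ighv* genes made up 0.275% ± 0.125 in WT and 0.158% ± 0.0781 in KO (SD, n = 3 each).

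Gene by gene, the log2 fold change from limma, on log2(normalized count + 1) with the pair as a block, was below 0 for 89 of the 90 members tested. Over all 12322 genes tested, 6135 were below 0. The median of the members was −0.78, with quartiles of −0.94 and −0.65, against 0.00067 over all genes tested. The exception among the members was *Ighv15-2*, at 0.07 (SE 0.36), which turned to −0.10 without pair 1. No member passed an adjusted p of 0.05 (lowest 0.653), as for all genes tested in this direction (0.0%). At an unadjusted p under 0.05, 63 members were lower and 0 higher in KO, against 3.03% of all genes lower and 206 of the 12322 higher. In all 3 pairs 66 of the 90 members were lower, against 13.1% of all genes, and 0 members were higher in all 3. For 14 members every KO library lay below every WT library, against 3.44% of all genes, and *Ighv2-2*, *Ighv3-8*, *Ighv7-3* and *Ighv7-4* were among them.

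The size of the difference depended on the pair. The median log2 KO/WT ratio of the 90 members in pairs 1, 2 and 3 was −0.25, −0.79 and −1.43, and 75, 81 and 88 members were lower in KO, against 53.2%, 49.9% and 49.5% of all genes tested. This count of adjusted calls rose to 40 members without pair 1 (background 1.36% of genes) and stayed at 0 without pair 2 or pair 3. DESeq2 on the recovered fragments gave an adjusted p to 67 members and called 8 lower in KO, against 0.222% of all genes given one. The quasi-likelihood test of edgeR called 0 at an adjusted p of 0.05 (lowest 0.669) and 64 as lower at an unadjusted p under 0.05, against 2.99% of all genes. Without the pair as a block, the limma count of lower members at an unadjusted p under 0.05 was 15 in place of 63, against 1.38% of all genes.

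**Figure D3:**
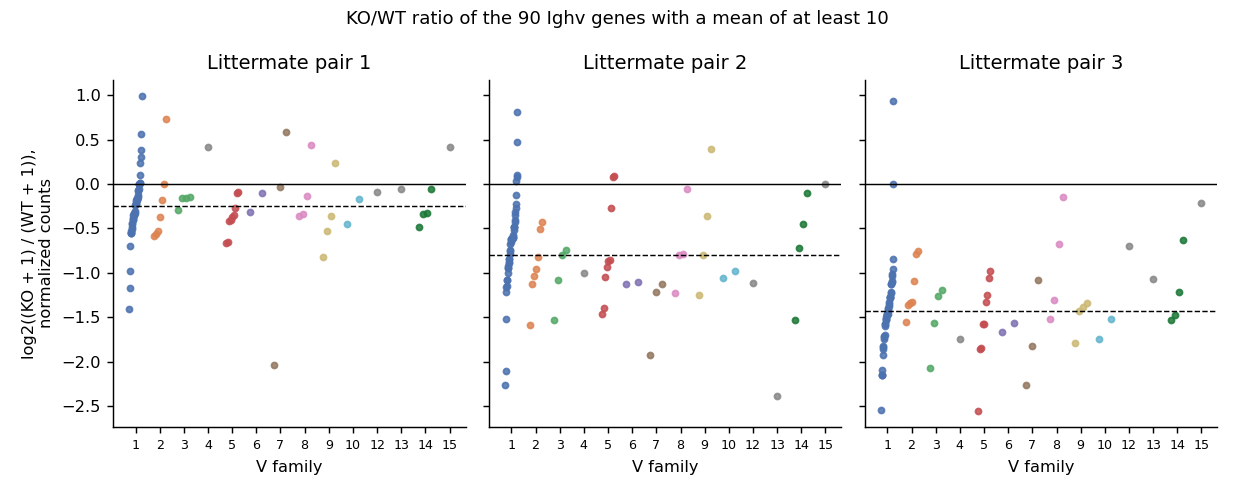
Log2 ratio of KO to WT normalized counts, each plus 1 (y axis), of the 90 *Ighv* genes with a mean of at least 10, by V family (x axis) in each littermate pair, with 1 point per gene and the median of these 90 genes as a dashed line. The dashed line lies at −0.25, −0.79 and −1.43 in pairs 1, 2 and 3, and points of most families surround it.

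The 8 members called by DESeq2 were *Ighv2-2*, *Ighv5-4*, *Ighv9-3* and, in family 1, *Ighv1-22*, *Ighv1-26*, *Ighv1-39*, *Ighv1-53* and *Ighv1-72*. They lie from the D side of the locus to its distal section and belong to 4 families. *Ighv1-26* had the lowest adjusted p by DESeq2, 0.000396, with a log2 fold change of −0.97 (SE 0.18). *Ighv2-2* had 343, 239 and 502 normalized counts in WT 1, 2 and 3 and 228, 116 and 170 in KO 1, 2 and 3, a log2 fold change of −1.06 by DESeq2 (SE 0.23, adjusted p = 0.00355), and its groups did not overlap. About 60.4% of its stretches of 75 bases are found in no other member, and *Ighv2-4* differs from it by 6 edits. For *Ighv5-4* the values were 388, 159 and 536 in WT and 246, 86.7 and 225 in KO, with a log2 fold change of −0.93 (SE 0.21, adjusted p = 0.00524, DESeq2). The groups of *Ighv5-4* overlapped through WT 2, the lowest WT library, as they did for most members.

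*Ighv9-3* had 705, 228 and 967 normalized counts in WT and 549, 131 and 371 in KO. *Ighv1-53* had 734, 307 and 838 in WT and 595, 132 and 361 in KO. *Ighv1-22* had 657, 152 and 667 in WT and 455, 78.2 and 276 in KO. In all 3 of these genes the KO library was the lower one in every pair, and pair 2 held the lowest value of each genotype. *Ighv1-39* had 345, 139 and 460 in WT and 242, 75.3 and 129 in KO. For *Ighv1-72* the values were 339, 96.2 and 370 in WT and 230, 42.9 and 172 in KO. Their log2 fold changes by DESeq2 lay between −0.85 and −1.08, with adjusted p between 0.00355 and 0.0347, while by limma none of the 8 had an adjusted p below 0.653.

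Among members with a mean of at least 50, the 5 with the lowest limma log2 fold changes, chosen by that value, were *Ighv3-8* (−1.25), *Ighv2-5* (−1.17), *Ighv1-54* (−1.08), *Ighv1-39* (−1.07) and *Ighv2-2* (−1.06). *Ighv3-8* had 45.3, 125 and 122 normalized counts in WT and 40.6, 42.9 and 28.1 in KO, so that pair 1 hardly differed and pairs 2 and 3 did. *Ighv1-54* had 169, 56.5 and 266 in WT and 171, 24.8 and 61.7 in KO, with no difference in pair 1 either. The 5 highest, chosen the same way, were *Ighv1-14* (−0.02), *Ighv8-8* (−0.36), *Ighv5-6* (−0.44), *Ighv1-75* (−0.49) and *Ighv1-85* (−0.55), and every one was still below 0. *Ighv8-8* had 260, 78.4 and 300 in WT and 205, 75.3 and 188 in KO.

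*Ighv7-4*, named after its values were seen, had the lowest log2 fold change of all 90, −2.08 (SE 0.31, unadjusted p = 0.000395, adjusted p = 0.653, limma). It had 26.4, 28.2 and 38.5 normalized counts in WT 1, 2 and 3 and 5.66, 6.67 and 7.26 in KO 1, 2 and 3. The groups stood far apart and the ratio was alike in the 3 pairs, unlike for the other members of family 7. *Ighv7-3* had 282, 614 and 496 in WT and 277, 263 and 139 in KO, and differed little in pair 1. The sequence of *Ighv7-4* differs from that of *Ighv7-3* by 22 edits, and no stretch of 75 bases is shared with another member.

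By family, the summed counts had a mean log2 KO/WT ratio below 0 in 14 of the 15 families with counts, and 13 families were lower in KO in all 3 pairs. The ratio of family 1 was 0.838, 0.602 and 0.363 in pairs 1, 2 and 3, close to the ratios of all *Ighv* genes. It was 0.751, 0.556 and 0.346 in family 5, and 0.728, 0.538 and 0.390 in family 2. For families 3, 9 and 14 it was 0.840, 0.514 and 0.390, then 0.786, 0.579 and 0.370, and then 0.804, 0.712 and 0.402. Family 1 lies farther from D than the other families named here, and all had the same order of pairs. Their ratios did not overlap between pairs, with 0.728 to 0.840 in pair 1, 0.514 to 0.712 in pair 2 and 0.346 to 0.402 in pair 3. Families 6 (0.892, 0.458 and 0.328) and 10 (0.827, 0.486 and 0.319) had the same order of pairs.

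Family 7 had ratios of 0.951, 0.421 and 0.290 and the lowest mean log2 ratio of the families with over 1% of counts, −1.04 ± 0.87 (SD over 3 pairs). Family 8 had the highest, −0.51 ± 0.39, with ratios of 0.874, 0.763 and 0.522. The exact sign-flip permutation test gave p = 0.25 for each of the 13 families lower in all 3 pairs, the smallest 3 pairs allow, and 0.288 after Benjamini-Hochberg adjustment over the 15 families, so that no family passed.

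The 2 families that were not lower in every pair were 4 and 15. Family 4 had ratios of 1.33, 0.608 and 0.338, with 49.1, 33.5 and 124 normalized counts of *Ighv4-1* in WT and 66.1, 16.2 and 36.3 in KO. Family 15 had ratios of 1.37, 1.00 and 0.855, with 7.56, 10.5 and 18.1 of *Ighv15-2* in WT and 10.4, 10.5 and 15.4 in KO. At about 10 counts, the ratio of family 15 is poorly determined. In family 13 the pairs differed most, with ratios of 0.960, 0.157 and 0.470. *Ighv13-2* had 48.2, 29.3 and 63.8 in WT and 46.3, 4.77 and 30.0 in KO. The ratio of 0.157 rests on the 4.77 in KO 2, where a count of 0 allows up to 2.86, and is poorly determined too.

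**Figure D4:**
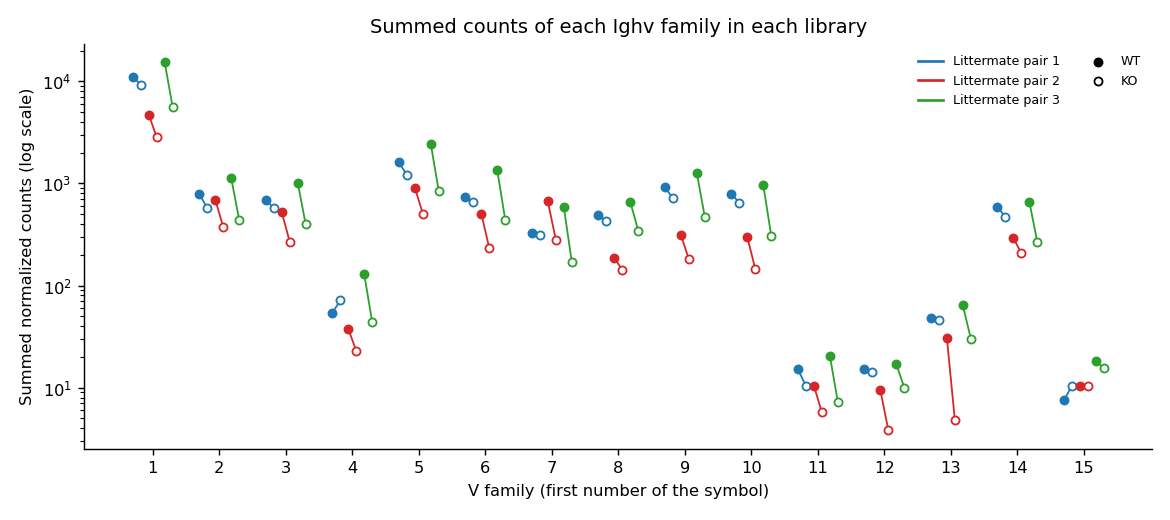
Summed normalized counts of each V family (x axis) on a log scale (y axis), with a filled point for WT and an open point for KO joined within each littermate pair. The lines go down from WT to KO in all 3 pairs for 13 of the 15 families drawn, least in pair 1, while families 4 and 15 have lines that go up in pair 1.

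The shares of the families differed little between the genotypes, so that the lower total was spread over the families much as the counts were. Family 1 held 57.4% ± 5.36 in WT and 58.5% ± 3.81 in KO (SD, n = 3), a difference of 1.17 ± 1.75 percentage points over the pairs (exact sign-flip permutation p = 0.5). In 5 families the share moved in the same direction in all 3 pairs. The share of family 8 was higher in KO by 0.149, 0.697 and 1.11 points in pairs 1, 2 and 3, and that of family 15 by 0.0275, 0.0872 and 0.0949 points. Families 5, 10 and 11 had a smaller share in KO in all 3 pairs, with mean differences of −0.504, −0.310 and −0.00681 points. The exact permutation p was 0.25 for each of these 5, and 0.8 after adjustment over the families.

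By position, the KO/WT ratio was alike along the locus. It was 0.766, 0.557 and 0.365 in pairs 1, 2 and 3 in the proximal section, 0.853, 0.518 and 0.357 in the second, 0.783, 0.547 and 0.375 in the third, and 0.878, 0.663 and 0.362 in the distal section. The difference between the distal and the proximal section in log2 ratio was 0.14 ± 0.14 (SD over 3 pairs, exact sign-flip permutation p = 0.5), positive in pairs 1 and 2 and −0.01 in pair 3. Over the 90 members, position and log2 fold change had a Spearman correlation of 0.12 and a Pearson correlation of 0.074. The members share libraries, so this is a description. With sequence likeness to the closest member the Spearman correlation was −0.14, and with the log of the mean level it was −0.23.

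Usage differed far more between pair 2 and the rest than between the genotypes. The overlap of usage, the sum over members of the smaller of the shares in 2 libraries, was 89.3% to 94.0% between the littermates of the 3 pairs. Between libraries of pairs 1 and 3 it was 92.0% to 92.9% in 4 comparisons, and between a library of pair 2 and one of the others it was 74.3% to 77.8% in 8 comparisons. For the kappa V genes, 160 genes of another chromosome counted in the same libraries, the same 3 ranges were 88.3% to 94.5%, 86.3% to 91.5% and 85.5% to 92.6%, and pair 2 did not stand apart. Both libraries of pair 2 also had the lowest summed *Ighv* counts of their genotype. This comparison was added after the values were seen and is given without a test.

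In 13 of the 90 members the share of *Ighv* counts was over 2 times as high in both libraries of pair 2 as in each of the 4 other libraries. The same rule found 0 members for pair 1, 0 for pair 3 and 0 of 84 kappa V genes for any pair. The 13 were *Ighv2-6-8*, *Ighv2-9*, *Ighv7-3*, *Ighv14-4*, *Ighv3-4*, *Ighv8-5*, *Ighv1-5*, *Ighv1-14*, *Ighv1-20*, *Ighv1-33*, *Ighv1-34*, *Ighv1-62* and *Ighv1-84*. They are of 6 families and lie in all 4 sections of the locus, 2, 5, 4 and 2 of them from the proximal to the distal one. The mean of at least 10 was taken over all 6 libraries, so high values in pair 2 could themselves bring a member into the count.

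The 3 pseudogenes with a mean of at least 10 were among the 13, as had to be the case, since they reached that mean through pair 2 alone. *Ighv1-14* had 328 normalized counts in WT 2 and 164 in KO 2, but 1.89 and 0 in WT 1 and WT 3 and 1.89 and 0.908 in KO 1 and KO 3. *Ighv1-62* had 65.9 in WT 2, 42.9 in KO 2 and at most 2.83 elsewhere, and *Ighv1-33* had 38.7, 24.8 and at most 3.61. These genes were near or under the limit that a count of 0 allows in 4 libraries and clearly counted in the other 2. Pseudogenes as a class held 5.50% and 5.56% of *Ighv* counts in WT 2 and KO 2, and 0.226% to 0.633% in the 4 others. *Ighv1-14* is annotated as a pseudogene in GRCm38. Read from its first start codon, its codon 5 is the stop codon TGA, shown in capitals in its first 45 bases beside the same stretch of *Ighv1-26*, which has no stop codon there.
Ighv1-14: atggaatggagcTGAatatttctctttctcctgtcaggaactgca
Ighv1-26: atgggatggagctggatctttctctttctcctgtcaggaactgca
The first in-frame stop codon of *Ighv1-62* is codon 56 and that of *Ighv1-33* codon 89, counted from the first start codon. Reads of all 6 libraries were aligned to GRCm38, the genome of C57BL/6J, while the mice were of a mixed C57BL/6J X CBA background. The V gene alleles that each pair carried are not given in the labels, and their part in these values was not tested.

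Other members of the 13 are annotated as V genes, some with high counts. *Ighv7-3* held 5.86% of *Ighv* counts on average in pair 2 and 1.71% in pairs 1 and 3. *Ighv2-9* had 183 normalized counts in WT 2 and 93.4 in KO 2 against 28.1 to 72.2 elsewhere, although the summed *Ighv* level of pair 2 was the lowest. *Ighv3-4* had 98.3 and 45.8 against 3.63 to 9.63 elsewhere, so it too reached a mean of 10 through pair 2 alone. Within pair 2 these genes were lower in KO 2 than in WT 2, as *Ighv* genes in general were. In turn, the genes that led pairs 1 and 3 had smaller shares in pair 2, such as *Ighv1-26* with 3.75% against 5.93% and *Ighv1-22* with 1.58% against 3.06%. *Ighv1-82* kept its share, with 6.04% against 5.81%.

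**Figure D5:**
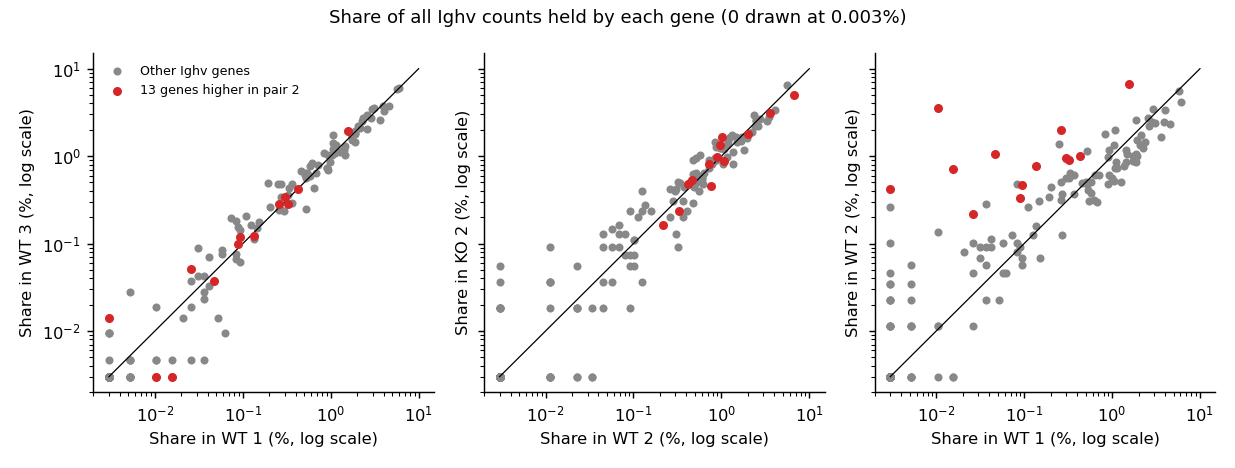
Share of all *Ighv* counts in percent held by each of the 185 *Ighv* genes, on log scales, in WT 3 against WT 1 (left), KO 2 against WT 2 (middle) and WT 2 against WT 1 (right), with the line of equal shares and the 13 genes that are higher in pair 2 in red. The points follow the line left and middle, while on the right the 13 genes lie above it, up to *Ighv1-14* at over 3% in WT 2.

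Leaving out pair 2 kept the sign of the overall KO/WT values. The mean log2 ratio of the summed *Ighv* level was −0.86 over pairs 1 and 3 (exact permutation p = 0.5, the smallest 2 pairs allow), and the median log2 fold change of the members was −0.82. The distal minus proximal difference was 0.09. *Ighv1-14* changed sign to 0.47 on counts of at most 1.89.

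The evenness of usage was compared at a common 5471 *Ighv* fragments per library, the lowest number found. The effective number of V genes, the exponential of the Shannon entropy of the shares, was 53.8, 63.5 and 55.6 in WT 1, 2 and 3 and 54.9, 67.8 and 56.4 in KO 1, 2 and 3. It was higher in KO in each pair, by 2.02 ± 1.97 (SD over 3 pairs, exact sign-flip permutation p = 0.25), but the gap between pair 2 and the other pairs was larger. Without pair 2 the mean difference was 0.883. The expected number of members with a fragment at this depth was 107, 121 and 103 in WT and 109, 124 and 110 in KO, again higher in KO in each pair, by 3.82 ± 2.80 (exact permutation p = 0.25).

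*Ighv* genes were also set against the heavy chain constant genes, which lie at the other end of a joined heavy chain RNA. Whether all constant gene counts came from RNA with a V part was not tested. The log2 of summed *Ighv* over summed constant gene counts was −2.33, −2.50 and −2.16 in WT 1, 2 and 3 and −2.39, −2.81 and −2.59 in KO 1, 2 and 3. It was lower in KO in each pair, by 0.06, 0.31 and 0.43, a mean of −0.26 ± 0.19 (SD over 3 pairs, exact sign-flip permutation p = 0.25). The groups overlapped, because WT 2 was below KO 1. Of the 2 most counted constant genes, *Ighm* had 60334, 19386 and 55042 normalized counts in WT and 57062, 15221 and 35536 in KO, and *Ighg1* had 28267, 29341 and 54594 in WT and 19261, 17735 and 17683 in KO. For *Ighg1*, the constant gene that IL-4 favours, the groups did not overlap, while *Ighm* overlapped as the V genes did. Their limma log2 fold changes were −0.35 (SE 0.12) for *Ighm* and −0.97 (SE 0.20) for *Ighg1*, on both sides of the *Ighv* median.

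Genes that make or regulate V regions were examined as lists. Of 12 genes for V(D)J recombination, 9 were tested and 0 were lower or higher at an unadjusted p under 0.05, with a median log2 fold change of 0.06. *Rag1* and *Rag2*, the recombinase that joins V to D and J, were listed at 0 in all 6 libraries. Among 14 regulators of the heavy chain locus, such as *Pax5*, *Yy1* and *Ctcf*, 0 had an unadjusted p under 0.05, and the median was 0.03. Of all 12322 genes tested, 3.03% were lower and 206 were higher at this p (limma). A count of 0 in lists this short is near that share. Of the surrogate light chain genes, *Igll1* was at 0 and *Vpreb1* at most 3.14 in all libraries. The related gene *Vpreb3*, listed with them, was lower in KO at −0.22 (unadjusted p = 0.0261, adjusted p = 0.970, limma).

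Among the other parts of the heavy chain RNA, 7 of the 8 constant genes had a log2 fold change below 0, with a median of −0.40, and 4 had an unadjusted p under 0.05. All 4 *Ighj* genes were below 0, with a median of −0.51, and 2 of them had an unadjusted p under 0.05. Over all 12322 genes tested, 6135 were below 0 and 3.03% were lower at an unadjusted p under 0.05 (limma). Of the 20 *Ighd* segments listed, none reached a mean of 10. The kappa V genes had a median of −0.82 over 84 tested, 83 of them below 0, beside −0.78 for *Ighv*. *Igkc*, the kappa constant gene, had 23749, 16808 and 37309 normalized counts in WT and 16879, 9681 and 14006 in KO.

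Markers of antibody-secreting cells were examined in the same way. Of *Sdc1*, *Prdm1*, *Xbp1*, *Irf4*, *Jchain* and *Tnfrsf17*, 5 were tested, 3 were below 0 and 0 had an unadjusted p under 0.05, with a median log2 fold change of −0.01. Of all 12322 genes tested, 6135 were below 0, and 3.03% were lower and 206 higher at this p (limma). The counts of the markers are near these shares. The summed level of the markers was 7906 to 18378 normalized counts in WT and 8049 to 15767 in KO. It was lowest in pair 2 for both genotypes, as the *Ighv* level was. *Jchain*, which joins IgM and IgA into polymers, had 3555, 2573 and 8096 in WT and 4744, 2171 and 2722 in KO, so that it was higher in KO in pair 1 and lower in pairs 2 and 3, and pair 3 showed the largest gap, as for the V genes. The part of the number of antibody-secreting cells in the *Ighv* levels was not tested. Myeloid markers were few: 3 of 10 were tested, 3 were at 0 in all libraries, and the sum was 117 to 166 in WT and 67.7 to 158 in KO. Erythroid genes summed to at most 5.72.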

How the data were processed

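RNA of activated B cells was depleted of rRNA, made into stranded libraries with ERCC spike-ins and sequenced as 75-nt paired reads. Per the methods, the authors trimmed reads with cutadapt, aligned them to GRCm38 with STAR 2.6.1a and counted proper fragment pairs per gene on the sense strand of exons with featureCounts (Subread 1.6.3, Gencode vM19, mapping quality of at least 10). The deposited values are these counts divided by DESeq2 size factors, a signal in normalized counts. Reads that fit several V genes equally were dropped, reads with mutated or non-reference V sequence may be lost, and the germline annotation holds no joined V, D and J. All values (100%) were whole multiples, within 0.01, of 1 fragment. Of the 54446 gene IDs 54409 were named from GENCODE vM21.

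Genes with a mean of at least 10 (12322) were tested with limma 3.58.1 on log2(normalized count + 1), with the littermate pair as a block and Benjamini-Hochberg adjustment at 0.05. Fold changes on this scale understate those of low genes. The littermates pair the samples, and their deviations from group means had correlations over genes of 0.328, 0.685 and 0.170. Alternatives were edgeR 4.0.16, DESeq2 1.42.0 with default settings on recovered fragments, other pseudocounts, filters and scalings, no block, and leaving out each pair. Sums, shares, position and diversity were compared with exact sign-flip permutation tests over the 3 pairs, two-sided. With the pair as a block, the p-values of limma, edgeR and DESeq2 set the KO/WT difference against how far it varied between pairs. That variation was estimated with information shared over genes. Only the limma fit with no block sets the difference against the spread between libraries of 1 genotype. The sign-flip p ranks the mean pair difference among all its sign flips. Counts of 12322 genes were also simulated for 3 pairs, with no pair effect and the same change in every pair. Of 100 genes given a log2 change of 1, limma recovered 85, edgeR 85 and DESeq2 74. False calls numbered 17, 21 and 11. In the data the size of the difference depended on the pair, so these rates do not give the power for the *Ighv* genes.

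The members and lists were chosen with earlier results of these data known. The genes named are the most counted member of each family, the 12 most counted members, the 5 lowest and 5 highest fold changes among members with a mean of at least 50, members called by DESeq2 or limma, the most proximal and most distal member with a mean of at least 10 and the 3 most counted pseudogenes. Others, *Ighv7-4* and the pair 2 genes among them, were chosen after their values were seen or as background. The nanopore data of the study were not analysed here.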

Additional observations from a re-analysis of the deposited data

How the results depend on the processing

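The count of members with an adjusted p under 0.05 was 0 by limma under every pseudocount, filter and scaling tried, 8 with DESeq2, and between 0 and 40 when 1 pair was left out, the 40 without replicate 1. The cause was not tested. Members lower at an unadjusted p under 0.05 numbered 15 with no replicate block in place of 63. With no filter on low values 1 member, *Ighv8-6*, was higher at an unadjusted p under 0.05, on at most 4.77 normalized counts. The median log2 fold change ranged from −0.71 to −0.82 over the settings that kept all pairs, and from −0.51 to −1.08 when 1 pair was left out. With no replicate block the median was −0.78, and the exact permutation p of the summed level was 0.3, of 3 against 3 libraries, where 0.1 is the smallest. Dropping the block changed no other call. Values that turned in direction in 1 of the settings that leave out a pair had these ranges over them: −0.10 to 0.21 for *Ighv15-2* and −0.11 to 0.23 for family 15 (below 0 without replicate 1), −0.50 to 0.47 for *Ighv1-14* (above 0 without replicate 2), and, as family shares in percentage points, −0.239 to 0.167 for family 3, −0.00355 to 0.105 for family 4, −0.0928 to 0.0723 for family 9, −0.00920 to 0.0261 for family 12 and −0.0982 to 0.0571 for family 13. None of these had passed a test. Shares per length and sums without 3 pseudogenes, both chosen after seeing the data, left family 1 at 1.11 points and the distal minus proximal difference at 0.14. With 3 pairs no exact test can pass, and counts near 10 leave single ratios poorly determined.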
